A study of Homo sapiens with 29 samples.

Results

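Collagen chain genes, each encoding a polypeptide that winds with partners into the triple helix of a collagen molecule, were followed in xenograft tumours of a human breast cancer line and of its paclitaxel-resistant derivative. Members were the protein-coding genes whose symbols read COL, a number, A and a number, and 44 of the 58302 genes in the count table met this rule. Of these, 20 had enough counts to be tested and 24 did not. Tumours came from MDA-MB-231, a mesenchymal-like line without hormone receptors or HER2 amplification, injected with extracellular matrix gel on both sides of SCID-beige mice. Such mice have no functional lymphocytes but keep their own fibroblasts, vessels and myeloid cells.

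The parental arm comprised tumours from 250000 injected cells treated from day 6, and the resistant arm tumours from 1500000 cells treated from day 16, so the line cannot be told apart from these settings. Within each arm, mice received vehicle, decitabine at 0.4 mg/kg (a cytidine analogue that traps DNA methyltransferases), doxorubicin at 1 mg/kg (an anthracycline that poisons topoisomerase II) or both drugs, in 12-day cycles separated by 2 days without drug, for 26 days altogether. Libraries numbered 4, 4, 3 and 4 in the parental vehicle, decitabine, doxorubicin and combination groups, and 4, 3, 4 and 3 in the resistant groups in the same order. A single resistant line was named in the labels. Which mouse gave which library was not stated, so the p-values reflect variation among samples that can come from the same animal.

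Collagen chains fold in the endoplasmic reticulum after prolines and lysines have been hydroxylated, and are then secreted, trimmed and assembled, either with copies of themselves or with partner chains. Fibril-forming collagens give connective tissue its strength, type IV collagens form the sheet of basement membranes, type VI forms beaded filaments beside them, and membrane-spanning and basement membrane zone collagens anchor cells. In solid tumours most fibrillar collagen is made by fibroblasts, which here are mouse cells, whereas carcinoma cells also make collagens of their own.

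Promoter sequences are shown for some members on which the results turn, because decitabine acts on methylation of C in the dinucleotide CG. They come from a set of RefSeq start sites (build GRCh38.p14) that did not cover every member. COL6A1, COL8A1 and COL9A3, the members called with decitabine on average, had no entry in it. DNA methylation was not measured. Each line gives the 250 bases before the start site, 5′ to 3′ on the strand of the gene, with every CG in capitals. COL6A2 lies at chr21:46097862-46098111 on the plus strand, COL6A3 at chr2:237414165-237414414 on the minus strand, and the start sites of COL18A1 at chr21:45404915-45405164 (COL18A1 first) and chr21:45455272-45455521 (COL18A1 second) on the plus strand.
COL6A2: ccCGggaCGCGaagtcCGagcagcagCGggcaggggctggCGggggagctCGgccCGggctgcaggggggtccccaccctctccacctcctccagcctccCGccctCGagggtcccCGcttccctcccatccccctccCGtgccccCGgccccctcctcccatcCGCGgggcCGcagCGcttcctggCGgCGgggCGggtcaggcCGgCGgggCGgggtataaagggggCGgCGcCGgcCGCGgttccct
COL6A3: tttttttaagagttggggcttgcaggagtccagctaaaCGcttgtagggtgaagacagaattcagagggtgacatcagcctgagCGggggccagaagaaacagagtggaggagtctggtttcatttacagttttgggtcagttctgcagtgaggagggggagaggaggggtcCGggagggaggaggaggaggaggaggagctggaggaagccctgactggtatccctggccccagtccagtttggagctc
COL18A1 first: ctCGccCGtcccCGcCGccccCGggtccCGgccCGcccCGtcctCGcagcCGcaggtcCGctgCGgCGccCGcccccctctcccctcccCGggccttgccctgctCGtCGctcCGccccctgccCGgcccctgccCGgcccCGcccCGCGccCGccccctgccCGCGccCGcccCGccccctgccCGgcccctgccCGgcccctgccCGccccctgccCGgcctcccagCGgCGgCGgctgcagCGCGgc
COL18A1 second: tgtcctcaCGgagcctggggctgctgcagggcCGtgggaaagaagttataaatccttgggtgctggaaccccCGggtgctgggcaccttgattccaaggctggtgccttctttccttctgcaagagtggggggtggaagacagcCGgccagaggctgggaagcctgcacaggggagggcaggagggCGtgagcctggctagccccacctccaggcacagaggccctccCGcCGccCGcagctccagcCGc

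In windows of 300 bases (250 before and 50 after the start site), COL6A2 held 36 CG, a number reached by 12.7% of the 35116 windows of all genes, whose median was 14. Its partner COL6A3 held 4, which 75.5% of windows reached. The first start site of COL18A1 held 46 (2.89% of windows) and its second held 10 (56.4%). COL13A1 held 22 CG and COL27A1 held 16. The sequence GGGCGG was found on either strand in 45% of all windows and CCAAT in 34.6%. Of the 44 members, 32 had an entry in the promoter table. A match of letters is a description of the window and not a site of binding.

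COL4A1 and COL4A2, the chains of the common type IV collagen, start 127 bases apart on opposite strands in RefSeq, and the 126 bases between them, chr13:110307158-110307283 on the plus strand, are shown because both genes share this interval. It held 20 CG, in capitals.
COL4A1 to COL4A2: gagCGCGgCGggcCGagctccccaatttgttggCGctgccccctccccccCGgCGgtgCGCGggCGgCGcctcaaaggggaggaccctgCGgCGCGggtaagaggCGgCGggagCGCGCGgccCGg

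Libraries held 3398261 to 5382295 counts with a median of 4600007, and collagen chain genes took between 0.135% and 0.36% of them. On the second principal component of 2000 genes, parental vehicle 3 and resistant decitabine 2 stood apart from the other libraries, and values that rest on them are also given without them. All 8 markers of the injected line passed the filter. Their summed levels were 3917 to 5883 CPM per library (counts per 1000000 counts of the scaled library size). Of the receptors ESR1, PGR and ERBB2, low in triple-negative tumours, 1 passed the filter, and PGR was at 0 in 7 of 8 groups. Together these 3 were at 14.4 to 25.3 CPM per library. The tested receptor was called higher in resistant tumours under decitabine (log2 0.43) and on average over the treatments (log2 0.22). Of 12 fibroblast markers, 6 passed the filter, with sums of 12.4 to 143 CPM, led by SFRP2. DCN and LUM, which define fibroblasts, stayed below 1 CPM as a mean in each group, with 3 DCN counts in the parental vehicle group and 15 in the resistant vehicle group. Between the lines under vehicle, 1 of 6 tested fibroblast, 3 of 4 pericyte or smooth muscle, 0 of 4 endothelial and 0 of 3 myeloid markers were higher and 0, 0, 1 and 1 were lower (background 20.1%). With decitabine on average, 1 pericyte, 2 endothelial and the 1 tested adipocyte marker were higher (background 6.8%), and 0 fibroblast and 0 myeloid markers were called (0 at an unadjusted p under 0.05 and 0 by DESeq2 in either list). No skeletal muscle marker passed the filter.

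Levels of the tested members spanned nearly 3 orders of magnitude. CPM here count tags near the 3′ end and do not grow with transcript length, so levels of genes are given as they stand. Mouse reads that align to human sequence would enter these levels, and their share per gene was not analysed. The order of genes below is therefore an order of counts. Averaged over the 8 group means, COL1A1, the major chain of type I collagen of connective tissue, was highest with 744 CPM. It was followed by COL13A1 (303 CPM), a membrane-spanning collagen of cell contacts, COL18A1 (247 CPM), the precursor of endostatin, COL8A1 (198 CPM), a short-chain collagen of vessel walls and migrating cells, and COL3A1 (155 CPM), the fibrillar partner of type I. COL6A1 (143 CPM), COL6A3 (83.4 CPM), COL5A1 (69.1 CPM), COL27A1 (58.9 CPM) and COL12A1 (45.1 CPM) completed the 10 highest.

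COL4A2, COL4A1, COL7A1 (the anchoring fibrils of skin) and COL1A2 lay between 38.0 and 44.4 CPM. Differences among these 4 neighbours were smaller than the spread of each between libraries. The remaining tested members were COL6A2 (9.27 CPM), COL5A2 (8.42 CPM), COL17A1 (2.89 CPM), COL9A3 (2.64 CPM), COL11A1 (1.62 CPM) and COL21A1 (1.01 CPM). COL1A1 and COL1A2, the partner chains of type I collagen, were thus at unlike levels in these counts, 744 and 38.0 CPM. The share of mouse reads in either was not analysed.

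**Figure D1:**
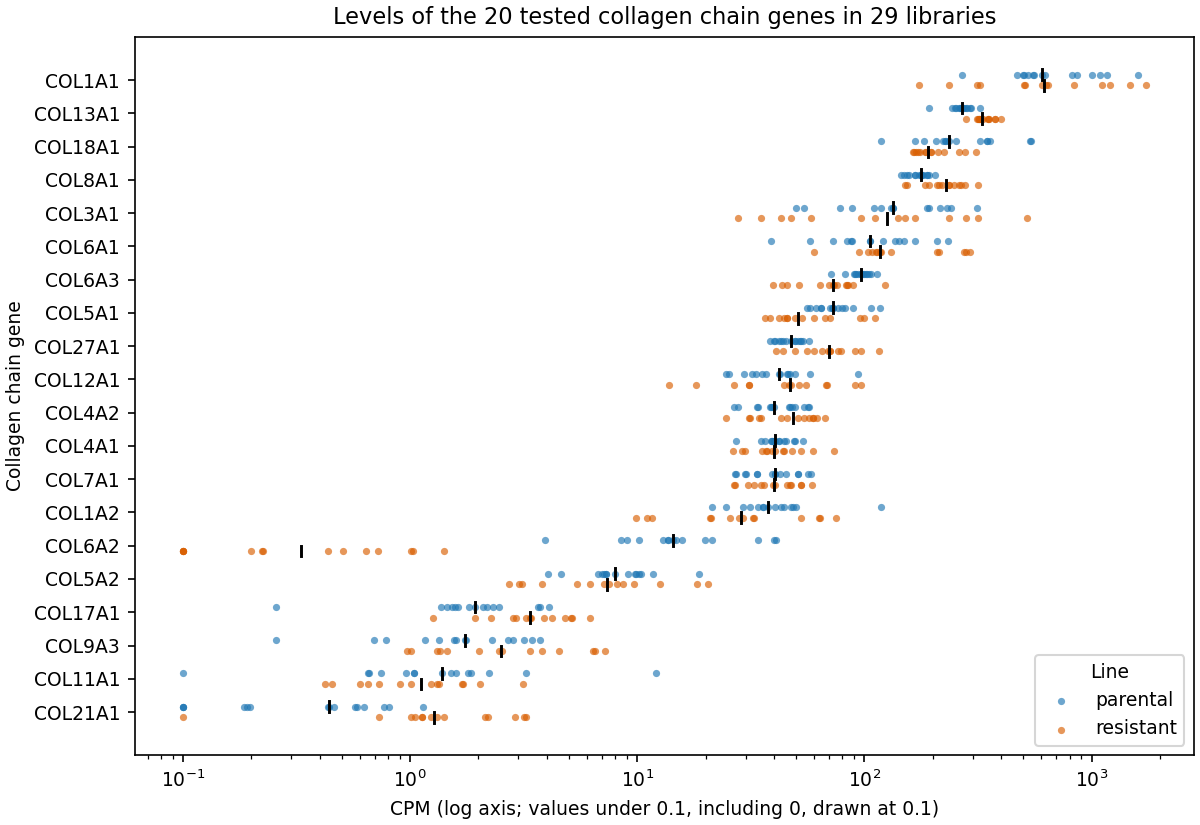
Levels of the 20 tested collagen chain genes, in CPM on a log axis, ordered by mean level. Each point is a library, blue for parental and orange for resistant tumours, and the black ticks are medians; COL6A2 is the row in which the colours separate, with the resistant libraries at 1.41 CPM or less and the parental libraries at 3.91 CPM or more.

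The 24 members below the filter were at or near zero. No count of COL2A1 (cartilage), COL6A5 or COL23A1 was found in any library, and 17 others had between 1 and 100 counts over all 29 libraries. Those with the most counts were COL9A2 (181), COL4A5 (175), COL16A1 (115), COL15A1 (103) and COL14A1 (71), then COL11A2 (42), COL4A4 (36), COL8A2 (26), COL19A1 (26) and COL4A6 (25). COL24A1, COL28A1, COL25A1 and COL20A1 had 17, 16, 15 and 11 counts. COL10A1 (8), COL22A1 (7), COL5A3 (4), COL4A3 (2), COL9A1 (2), COL26A1 (1) and COL6A6 (1) were lowest. Just inside the filter lay COL21A1 at 1.01 CPM and just outside it COL9A2 at 1.35 CPM and COL4A5 at 1.26 CPM, since the filter asks for counts in a group's number of libraries rather than for a mean. COL4A5, a chain of kidney and epithelial basement membranes, passed the filter and was called between the lines under decitabine without resistant decitabine 3 (log2 -3.08, adjusted p = 0.0358), and on average without that library, parental doxorubicin 3 or resistant combination 3 (log2 -1.22, -0.84 and -0.86).

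The first question was how resistant tumours differed from parental tumours in each treatment. Type VI collagen is a filament built from the products of COL6A1, COL6A2 and COL6A3, and under vehicle COL6A2 was the 1 of these chains that was called. COL6A2 (ENSG00000142173, chromosome 21, 46098097 to 46132849, plus strand) was close to absent in every resistant group. Parental vehicle libraries held 13.7, 10.2, 8.49 and 19.8 CPM, and resistant vehicle libraries 0, 0.507, 0.226 and 0 CPM. Under doxorubicin, the parental libraries held 33.9, 9.0 and 3.91 CPM and the resistant ones 0.200, 0, 0.224 and 0 CPM. In the combination, the values were 13, 14.3, 41.0 and 40.2 CPM against 0.433, 0.725 and 1.00 CPM.

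Groups did not overlap under any treatment. Counts were 226 against 3 under vehicle, 327 against 13 under decitabine, 232 against 2 under doxorubicin and 539 against 10 in the combination (parental first). The ratio under doxorubicin was 160 (exact 95% interval 43.9 to 1333, counting error only). Fitted log2 differences were -4.00 under decitabine (SE 0.70, adjusted p = 0.000137) and -5.17 in the combination (SE 0.71, adjusted p = 1.26e-05), in edgeR's quasi-likelihood test with Benjamini-Hochberg adjustment, as are all adjusted p-values of genes below unless another tool is named. COL6A2 reached the filter's level of 2.17 CPM in all 15 parental and 0 resistant libraries. It was thus tested only through the line in which it was higher, and its calls give no support of their own beyond the counts. Fewer cells of a type and less RNA per cell cannot be told apart in bulk tumours.

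None of the tested neighbouring genes was called between the lines under vehicle. COL6A1 (ENSG00000142156, 45981737 to 46005050) lies 93046 bases upstream on the same strand. Among the 10 tested genes within 500 kb of COL6A2, COL6A2 was the 1 called between the lines under vehicle (background 20.1%). COL6A2 had itself set the interval and passed the filter through the parental line alone. With so few neighbours, the absence of a call among them is no result about the interval. Its gene neighbours LSS (log2 0.14, SE 0.20) and COL6A1 (log2 0.35, SE 0.31, adjusted p = 0.473) gave no call. With decitabine in resistant tumours, COL6A1 and the non-coding RNA LINC01694 (log2 3.02, SE 0.48, adjusted p = 0.000374) were the called genes of this interval (background 3.33%).

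COL6A1 was called between the lines under decitabine, where it was higher in resistant tumours. Its levels there were 279, 276 and 208 CPM against 136, 142, 106 and 106 CPM in parental tumours, with no overlap (log2 1.05, SE 0.33, adjusted p = 0.0191). The other treatments gave log2 0.35, 0.23 and 0.21 for vehicle, doxorubicin and combination, and whether the difference depended on treatment was not tested beyond the decitabine response below. The call under decitabine was lost without parental decitabine 3, resistant decitabine 1 or resistant decitabine 2 (highest adjusted p = 0.0763), and the adjusted p was 0.082 without both libraries that stood apart.

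COL6A3, the long remaining chain that carries the endotrophin fragment, went the other way. Resistant libraries held 76.0, 51.4 and 72.6 CPM under decitabine against 105, 96.6, 107 and 114 CPM in parental ones (log2 -0.66, SE 0.22, adjusted p = 0.0285). Under doxorubicin the levels were 45.7, 84.3, 73.3 and 39.8 CPM against 96.2, 98.3 and 93.6 CPM (log2 -0.66, SE 0.22, adjusted p = 0.0424). In both treatments the groups did not overlap, while under vehicle they did (83.3, 123, 69.9 and 83.8 CPM against 101, 103, 91.3 and 81.9 CPM). The call under decitabine was lost without parental decitabine 3 or 4 or resistant decitabine 2 (highest adjusted p = 0.165), with 0.17 without both libraries that stood apart, and that under doxorubicin without any parental library or resistant doxorubicin 1 or 4 (highest adjusted p = 0.153). In the combination COL6A3 was called when resistant combination 2 was left out (log2 -0.71, adjusted p = 0.0464).

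**Figure D2:**
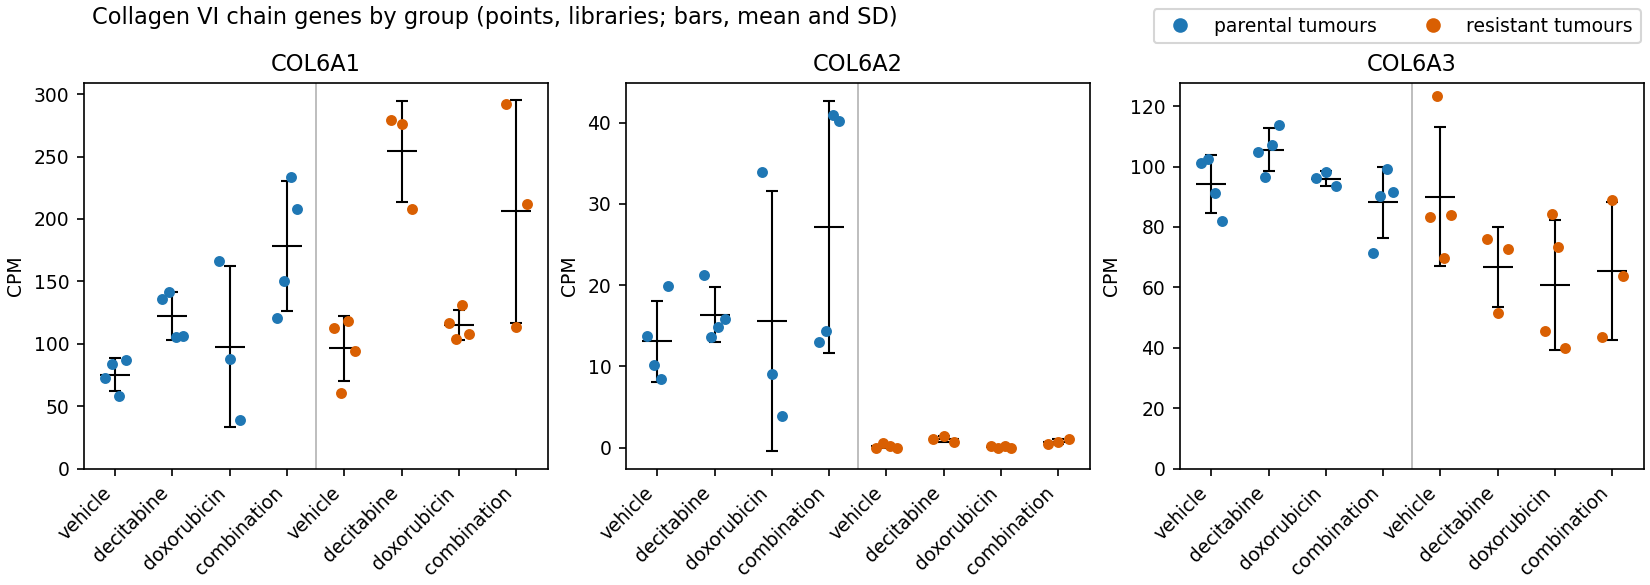
Levels of COL6A1, COL6A2 and COL6A3 in CPM (linear axes that start at or below 0) in the 8 groups. Points are libraries, and bars give the mean and SD; COL6A2 lies between 0 and 1.41 CPM in all 14 resistant libraries, and no COL6A1 library of a decitabine group lies below the vehicle libraries of its line.

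COL13A1 and COL8A1 were higher in resistant tumours under vehicle. COL13A1 (ENSG00000197467, chromosome 10) was at 242, 280, 272 and 276 CPM in parental vehicle libraries and at 324, 376, 377 and 318 CPM in resistant ones, without overlap (log2 0.38, SE 0.11, adjusted p = 0.0114). The difference was log2 0.38 again under decitabine (adjusted p = 0.0148) and in the combination (adjusted p = 0.0177), and log2 0.21 under doxorubicin (adjusted p = 0.246). The call under decitabine was lost without parental decitabine 3 or resistant decitabine 2 (highest adjusted p = 0.0958), and that in the combination without resistant combination 1 (adjusted p = 0.106). Without both libraries that stood apart, the adjusted p under decitabine was 0.0932. Without the filter on low counts none of the 3 calls of COL13A1 passed (adjusted p = 0.0651 under vehicle, 0.0866 under decitabine and 0.0796 in the combination). COL8A1 (ENSG00000144810, chromosome 3) was at 178, 193, 145 and 188 CPM in parental vehicle libraries and at 261, 235, 317 and 213 CPM in resistant ones (log2 0.54, SE 0.12, adjusted p = 0.00189), again without overlap. Under doxorubicin its levels were 175, 178 and 204 CPM against 249, 235, 276 and 267 CPM (log2 0.47, SE 0.13, adjusted p = 0.0161), a call lost without parental doxorubicin 1 or 2 (highest adjusted p = 0.0857). COL8A1 was not called under decitabine (log2 0.14, adjusted p = 0.445) or in the combination (log2 0.15, adjusted p = 0.449).

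COL27A1 (ENSG00000196739, chromosome 9), a fibril-forming collagen known from cartilage, followed the same direction. Its libraries held 51.2, 42.2, 40.4 and 38.3 CPM in the parental and 116, 90.7, 55.6 and 60.1 CPM in the resistant vehicle group (log2 0.90, SE 0.21, adjusted p = 0.0032). The groups did not overlap, and resistant vehicle 1 and 2 were the highest. Under decitabine the difference was log2 0.68 (SE 0.23, adjusted p = 0.0266), a call lost when parental decitabine 2, 3 or 4 or resistant decitabine 1 or 2 was left out (highest adjusted p = 0.0861), with 0.0697 without both libraries that stood apart. In the combination it was called without resistant combination 1 (log2 0.74, adjusted p = 0.0308).

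COL18A1 (ENSG00000182871, chromosome 21), a basement membrane zone collagen, was lower in resistant tumours under vehicle. Parental vehicle libraries held 236, 346, 534 and 541 CPM and resistant ones 196, 173, 278 and 196 CPM (log2 -0.97, SE 0.26, adjusted p = 0.00785). The lowest parental library lay below the highest resistant one, and parental vehicle 3 and 4 were far above the rest.

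Members at low level also differed. COL21A1, a collagen of the fibril-associated family, had 3 counts in the parental and 35 in the resistant doxorubicin group, a ratio of 8.43 (exact 95% interval 2.66 to 42.9, adjusted p = 0.0325). It reached the filter's level of 2.17 CPM in 5 resistant and 0 parental libraries, so it was tested only through the line in which it was higher, and the call gives no support of its own. Leaving out parental doxorubicin 1 or 3 or resistant doxorubicin 1 or 3 ended this call (highest adjusted p = 0.122), while in the combination COL21A1 was called without resistant combination 2 (log2 2.31, adjusted p = 0.0285). COL9A3, a fibril-associated chain of cartilage, was at 2.85, 2.30, 1.56 and 1.16 CPM in parental and 6.37, 2.54 and 7.24 CPM in resistant decitabine libraries (log2 1.45, SE 0.47, adjusted p = 0.0228), a call lost without parental decitabine 3 or 4 or resistant decitabine 1 or 3 (highest adjusted p = 0.103). COL9A3 overlaps TCFL5 on the opposite strand, a gene with 6357 counts, and how the counting used strand was not given in the sources used here.

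Under vehicle, 5 of 20 members were called (3 higher, 2 lower), where 20.1% of all tested genes were called (8.66% higher, 11.5% lower). The other counts were 6 under decitabine (4 higher, 2 lower; background 26.8%, of which 13.7% higher and 13.1% lower), 4 under doxorubicin (2 and 2; background 13.9%, or 5.88% and 8.05%) and 2 in the combination (1 and 1; background 21.9%, or 10.6% and 11.4%). Averaged over the 4 treatments, 10 were called (7 higher, 3 lower; background 46%, or 22.6% and 23.4%). Under vehicle, decitabine and on average, these shares lay near the background. With 20 members, the 4 calls under doxorubicin and the 2 in the combination differ from it by few genes. None of these counts is a result about the members as a list. The median log2 difference of the members was 0.37 under vehicle, against 0.02 over all tested genes. It was 0.07 under decitabine, 0.06 under doxorubicin, 0.14 in the combination and 0.05 on average, so the value under vehicle was the largest. The members tested through 1 line alone were COL6A2, COL21A1 and COL11A1, and the first is among the calls of every treatment. Groups without overlap were found for 4 members under vehicle (22.3% of all genes), 5 under decitabine (31.1%), 6 under doxorubicin (27.8%) and 2 in the combination (28.9%).

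In the average over treatments, COL21A1, which passed the filter through resistant libraries alone, gave log2 1.94 (SE 0.41, adjusted p = 0.000291). Among members that both lines brought past the filter, the largest called differences were those of COL9A3 (log2 0.84, SE 0.26, adjusted p = 0.00963) and COL17A1 (log2 0.80, SE 0.22, adjusted p = 0.00451), the hemidesmosome collagen of epithelia. These 3 had mean levels below 6 CPM. COL27A1 (log2 0.56), COL6A1 (log2 0.46, adjusted p = 0.0234), COL13A1 (log2 0.34, SE 0.06, adjusted p = 1.49e-05) and COL8A1 (log2 0.33, SE 0.06, adjusted p = 0.000149) were higher. COL6A3 (log2 -0.46, SE 0.11, adjusted p = 0.00109) and COL18A1 (log2 -0.39, SE 0.14, adjusted p = 0.0201) were lower. The call of COL6A1 was lost without resistant combination 1 (adjusted p = 0.0649) or without both libraries that stood apart (adjusted p = 0.0697), and that of COL18A1 without parental doxorubicin 1 or parental vehicle 4 (highest adjusted p = 0.0553).

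**Figure D3:**
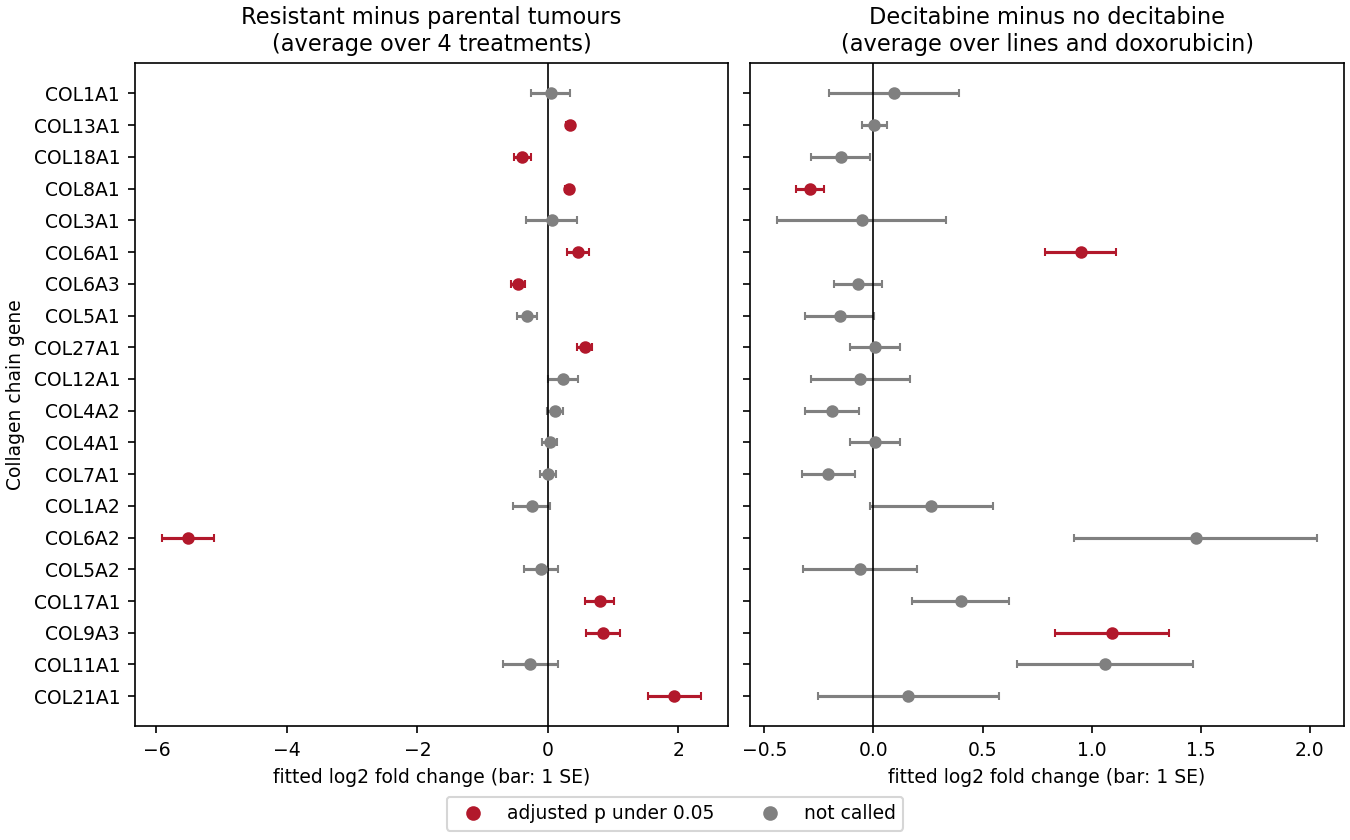
Fitted log2 fold changes of the 20 tested members, with bars of 1 SE, between the lines (left) and with decitabine (right), ordered by mean level. Red points passed an adjusted p of 0.05 in edgeR's quasi-likelihood test; 10 members were called between the lines and 3 with decitabine, and the fitted value of COL6A2 rests on groups with 2 and 3 counts.

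**Figure D4:**
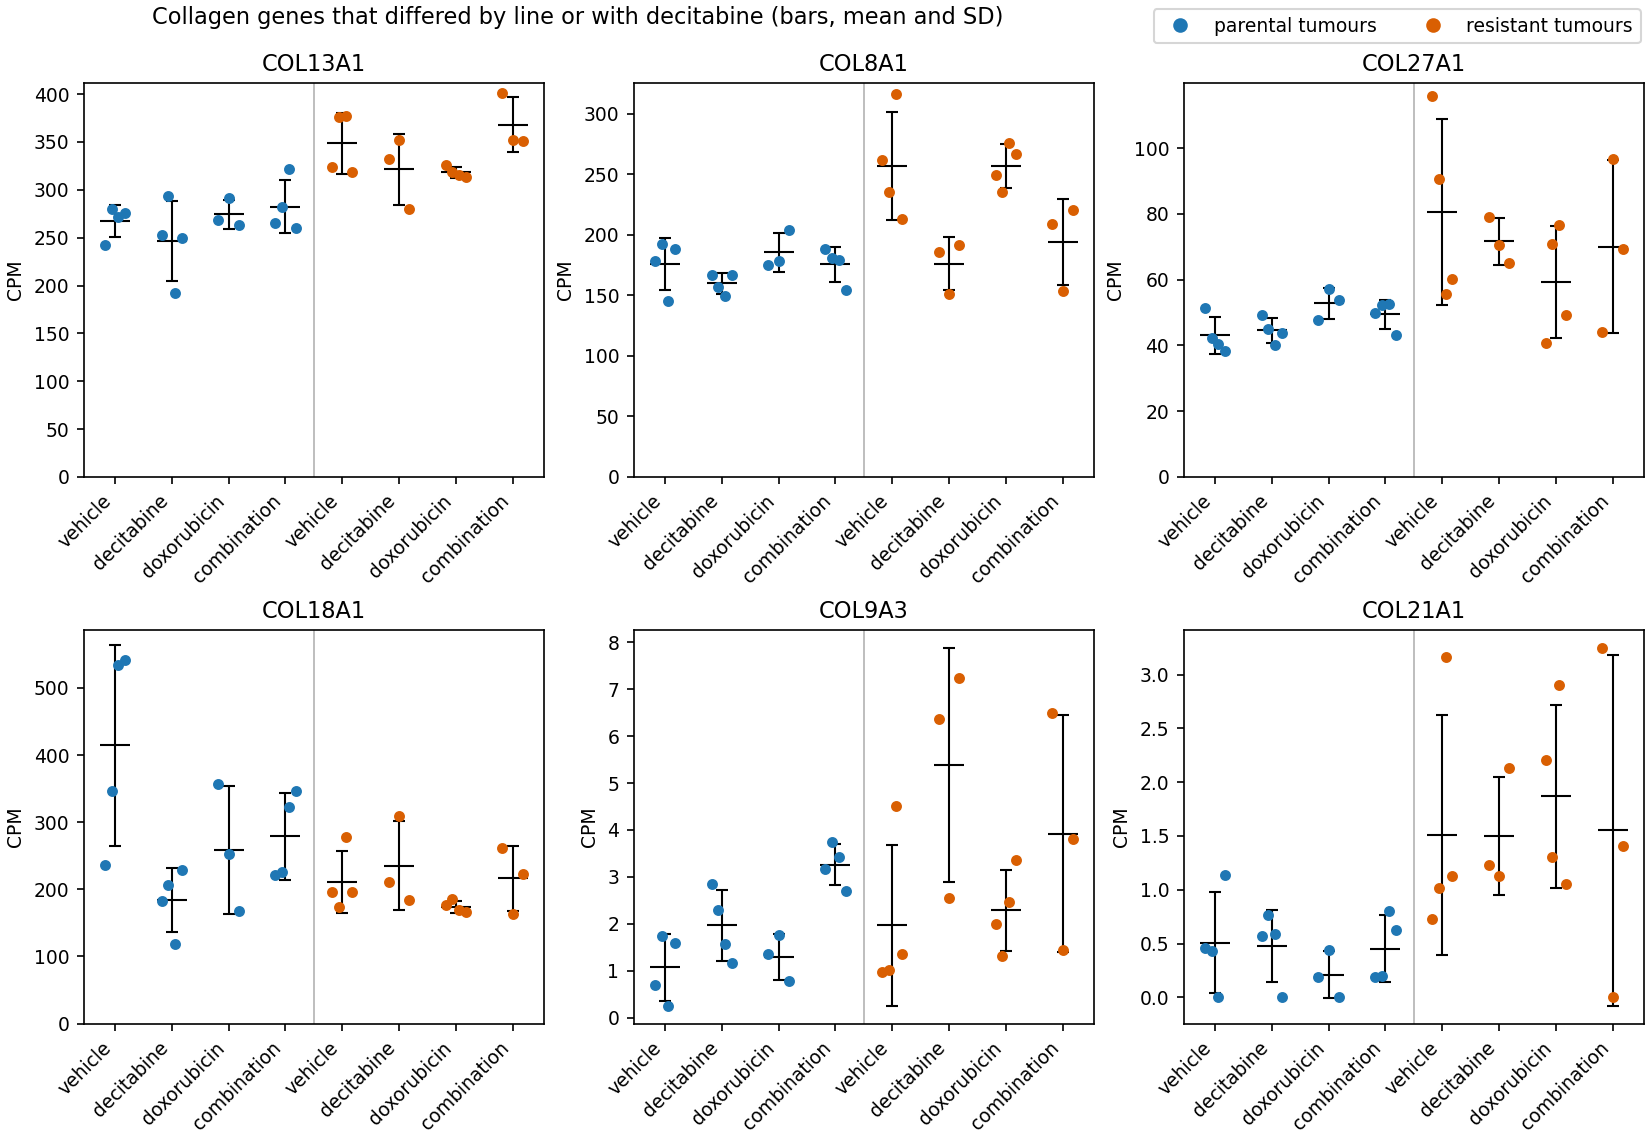
Levels in CPM of COL13A1, COL8A1, COL27A1, COL18A1, COL9A3 and COL21A1 in the 8 groups; points are libraries and bars the mean and SD. COL13A1 and COL8A1 sit higher in the resistant vehicle group, COL8A1 falls to 176 CPM with decitabine there, and COL18A1 has its widest spread in the parental vehicle group.

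The second question was what decitabine did to these genes, since the study asked whether resistance is tied to changes driven by DNA methylation. COL6A1 rose with decitabine in the resistant tumours, from 112, 60.3, 118 and 94.2 CPM to 279, 276 and 208 CPM (means 96.3 ± 26.1, SD, n = 4, and 254 ± 40.2, SD, n = 3). The groups did not overlap (log2 1.4, SE 0.33, adjusted p = 0.0188). In parental tumours its levels were 72.8, 83.4, 57.9 and 87.4 CPM under vehicle and 136, 142, 106 and 106 CPM under decitabine, also without overlap, but without a call (log2 0.70, SE 0.31, adjusted p = 0.225). The difference between these responses was log2 0.70 (SE 0.45, adjusted p = 0.381) and not called.

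With doxorubicin given as well, COL6A1 stood at 121, 150, 234 and 208 CPM in the parental and 292, 114 and 212 CPM in the resistant combination group. Against vehicle these were log2 1.24 (SE 0.31, adjusted p = 0.0508) and 1.10 (SE 0.33, adjusted p = 0.113), which DESeq2 called with adjusted p-values of 0.00484 and 0.0314. Without resistant combination 2, at 114 CPM, edgeR called the latter too (log2 1.39, adjusted p = 0.0364). Averaged over both lines and both doxorubicin settings, the difference with decitabine was log2 0.95 (SE 0.16, adjusted p = 0.000619), a call kept in each of 29 fits with 1 library left out. In the resistant line alone, it was lost without resistant decitabine 2 or resistant vehicle 2, and the adjusted p was 0.107 without both libraries that stood apart.

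Of 4 tested markers of pericytes and smooth muscle, which also make type VI collagen, 1 (CSPG4) was called with decitabine in resistant tumours (background 3.33%). All 4 were at an unadjusted p under 0.05 in edgeR, and their median log2 was -0.03, so they moved in both directions. The summed level of the list was 38.0 to 50.6 CPM in resistant vehicle and 54.5 to 63.6 CPM in resistant decitabine libraries, and 24.3 to 32.9 CPM against 32.7 to 37.2 CPM in parental ones. CSPG4, itself a receptor of type VI collagen, was the highest of them, with means of 23.3 CPM in resistant vehicle and 38.3 CPM in resistant decitabine tumours. The sum had means of 46.1 and 58.7 CPM in the same groups. Its rise was thus no larger than that of CSPG4 alone, and the sum is no measure of the other markers. RGS5, a defining pericyte gene, was at 8.19 CPM in the resistant vehicle group and 5.42 CPM in the resistant decitabine group, and DES was at 0 in both. Their part in the result was not tested. Fibroblast marker sums did not follow COL6A1 across libraries (r = -0.21 and rho = -0.20 over 15 parental, r = -0.31 and rho = -0.14 over 14 resistant libraries, permutation tests, adjusted p = 0.450 and 0.315).

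COL6A2 had 3 counts in the resistant vehicle and 13 in the resistant decitabine group, a ratio of 5.59 (exact 95% interval 1.54 to 30.6, counting error only). The edgeR fit, which also takes in the spread between libraries, gave no call for this difference (log2 2.32, SE 1.42, adjusted p = 0.368). For the resistant combination against doxorubicin the counts were 10 and 2, a ratio of 6.85 (1.46 to 64.3, counting error only). All 3 resistant decitabine libraries, at 1.03, 1.41 and 0.639 CPM, lay above the vehicle libraries. They remained far below the lowest parental library, at 3.91 CPM. In parental tumours COL6A2 was at 21.3, 13.6, 14.8 and 15.8 CPM with decitabine (log2 0.32, SE 0.44, adjusted p = 0.715 against vehicle). The average over lines missed the threshold in edgeR (adjusted p = 0.117) and passed in DESeq2 (adjusted p = 0.0114) or without parental doxorubicin 1 (adjusted p = 0.0102), with fitted values that rest on the few counts of the resistant groups.

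COL6A3 was not called with decitabine. Its log2 change with decitabine was 0.16 (SE 0.20) in parental, -0.43 (SE 0.22, adjusted p = 0.282) in resistant tumours and -0.07 (SE 0.11, adjusted p = 0.786) on average.

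COL8A1 fell with decitabine in resistant tumours. Levels there were 185, 151 and 192 CPM, below the vehicle libraries (261, 235, 317 and 213 CPM) and inside the range of the parental line (log2 -0.54, SE 0.13, adjusted p = 0.0222). The mean level was 176 CPM in this group and 176 CPM in parental vehicle tumours. In parental tumours the change was log2 -0.14 (SE 0.12, adjusted p = 0.549), and the difference between the responses was log2 -0.40 (SE 0.18, adjusted p = 0.218). On average over lines it was log2 -0.29 (SE 0.06, adjusted p = 0.00549). The call in the resistant line was lost without resistant decitabine 2 or resistant vehicle 3, and the adjusted p was 0.129 without both libraries that stood apart.

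COL18A1 fell in parental tumours, from 236, 346, 534 and 541 CPM to 182, 206, 119 and 229 CPM (means 414 ± 149.6 and 184 ± 47.6, SD, n = 4 each). The groups did not overlap, although parental vehicle 1 and parental decitabine 4 lay close together (log2 -1.17, SE 0.26, adjusted p = 0.0271). In resistant tumours the log2 change was 0.15 (SE 0.27, adjusted p = 0.791), and the difference between the responses was log2 1.33 (SE 0.37), which edgeR did not call (adjusted p = 0.0938) and DESeq2 did (adjusted p = 0.0288). Without parental vehicle 1, edgeR called it as well (log2 1.50, adjusted p = 0.0289). The parental call was lost without parental decitabine 3, parental vehicle 3 or parental vehicle 4, and the adjusted p was 0.0664 without both libraries that stood apart. These comparisons share vehicle libraries with the line comparison above, so their values are not independent.

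COL9A3 rose on average with decitabine (log2 1.09, SE 0.26, adjusted p = 0.00924), from group means of 1.07 and 1.29 CPM without it to 1.97 and 3.26 CPM with it in parental tumours. In resistant tumours the group means were 1.97 and 2.28 CPM without it and 5.38 and 3.92 CPM with it. In the resistant line alone the change was log2 1.45 (SE 0.48, adjusted p = 0.0921). It was called there without resistant vehicle 3, the library at 4.52 CPM among others at 0.971, 1.01 and 1.36 CPM (log2 2.28, adjusted p = 0.0154).

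Of the 20 members, 1 was called with decitabine in parental tumours (background 1.67%), 2 in resistant tumours (background 3.33%) and 3 on average (2 higher, 1 lower; background 6.8%, or 3.96% and 2.85%). Groups did not overlap for 2 members in parental tumours, COL6A1 and COL18A1 (9.46% of all genes), and for 3 in resistant tumours, COL6A1, COL6A2 and COL8A1 (16% of all genes). For the difference between the responses, 0 were called by edgeR, with 2 at an unadjusted p under 0.05 and 1 by DESeq2 (background 0.119%). The median log2 of the members with decitabine was 0.19 in parental and -0.14 in resistant tumours, while that over all tested genes lay within 0.0255 of 0 in each comparison.

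Doxorubicin alone changed no member past the threshold. In parental tumours edgeR called 0 members (1 at an unadjusted p under 0.05, 0 by DESeq2; background 0.23%), and in resistant tumours 0 (4 at an unadjusted p under 0.05, 0 by DESeq2; background 0%). The average over lines and decitabine gave 0 (0 at an unadjusted p under 0.05, 0 by DESeq2; background 2.37%), with fitted log2 values from -0.82 to 0.22. For the combination against vehicle, 0 were called in each line (4 at an unadjusted p under 0.05 and 1, COL6A1, by DESeq2 in each; background 1.03% in parental and 1.13% in resistant tumours). For the combination against doxorubicin, 0 were called in each line (2 at an unadjusted p under 0.05 and 0 by DESeq2 in each; background 0.304% and 0.66%).

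COL4A2 was at 31.2, 51.0, 45.6 and 34.3 CPM in the resistant doxorubicin libraries and at 67.3, 59.5, 54.3 and 59.7 CPM in the vehicle ones, without overlap and without a call (log2 -0.57, SE 0.23, adjusted p = 1). Group means over the 8 groups were 35.7 to 50.1 CPM for COL4A1 and 33.7 to 60.2 CPM for COL4A2, and edgeR called neither in any comparison with all libraries. Without both libraries that stood apart, COL4A2 was called between the lines under decitabine (log2 0.64, adjusted p = 0.0357).

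The fibrillar collagens of connective tissue varied widely between libraries of 1 group. COL1A1 was at 862, 816, 1092 and 624 CPM in the parental vehicle and at 512, 1482, 628 and 646 CPM in the resistant vehicle group. COL3A1 was at 242, 188, 119 and 133 CPM and at 111, 521, 141 and 151 CPM in the same libraries. In the parental combination group COL1A1 was at 269.6 to 528 CPM, below all parental vehicle libraries, without a call (log2 -0.91, SE 0.57, adjusted p = 0.389). Resistant vehicle 2 was the highest of its group for both, and its fibroblast marker sum of 143 CPM was the highest of all libraries. None of COL1A1, COL1A2, COL3A1, COL5A1, COL5A2, COL7A1, COL11A1 and COL12A1 was called in any of the 16 comparisons. COL5A1 was called between the lines under doxorubicin without resistant doxorubicin 2 (log2 -1.12, adjusted p = 0.012), and on average without that library or resistant combination 2 (log2 -0.42 and -0.46). COL11A1 was called between the lines under decitabine without parental decitabine 1 or 2 (log2 -1.83 and -1.88), where parental decitabine 3 stood at 12.1 CPM. COL11A1 reached the filter's level in 3 parental libraries and 1 resistant library, so it too was tested through 1 line alone.

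COL1A1 and COL3A1 rose and fell together across libraries (r = 0.82, rho = 0.81, adjusted p = 0.00063 in 15 parental and r = 0.89, rho = 0.89, adjusted p = 0.00018 in 14 resistant libraries, log2(CPM + 1), permutation tests). COL3A1 also followed the summed fibroblast markers (r = 0.71, rho = 0.76, adjusted p = 0.00354, and r = 0.84, rho = 0.86, adjusted p = 0.00052). With the 2 farthest libraries left out, these last values were 0.69 and 0.77. The relation of COL1A1 with the fibroblast markers was r = 0.49 in parental (rho = 0.58, adjusted p = 0.0806) and 0.68 in resistant tumours (rho = 0.67, adjusted p = 0.0101). These belong to a family of 12 relations chosen after the values had been seen. The fibroblast marker sum was led by SFRP2, and 6 of its 12 markers passed the filter. Mouse reads that align to human sequence would enter these counts, and their share was not analysed here.

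**Figure D5:**
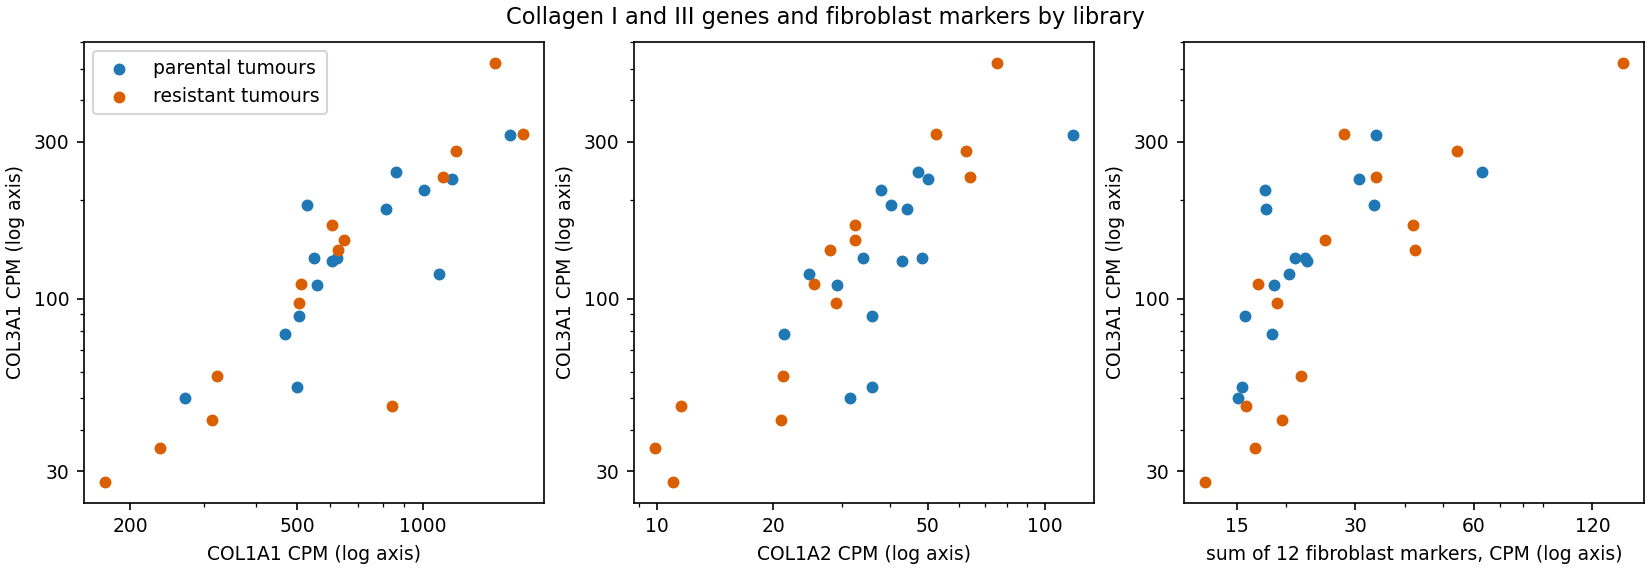
COL3A1 against COL1A1 (left), COL1A2 (middle) and the sum of 12 fibroblast markers (right), in CPM on log axes, 1 point per library, blue for parental and orange for resistant tumours. The point at the upper right of the last panel is resistant vehicle 2, with 521 CPM of COL3A1 and a marker sum of 143 CPM.

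Chains that share a molecule were compared within each line, for 6 pairs and 12 relations in all, on log2(CPM + 1) with permutation tests. COL6A1 and COL6A2 followed each other in parental tumours (r = 0.89, rho = 0.77, adjusted p = 0.00024, n = 15; r = 0.77 without the 2 farthest libraries). In resistant tumours they gave r = 0.65 (rho = 0.66, adjusted p = 0.0311, n = 14), which became -0.22 (adjusted p = 0.501) once treatment means had been removed. COL6A2 was at 1.41 CPM or less in these libraries, with 3 counts in the vehicle and 2 in the doxorubicin group. Such counts are too few to decide whether the 2 genes follow each other within treatments. COL6A3 followed COL6A1 in neither line (r = 0.01 and -0.50, rho = -0.03 and -0.55, adjusted p = 0.970 and 0.101, permutation tests).

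COL5A1 and COL5A2, of the type V fibrils that nucleate type I fibrils, gave r = 0.79 in resistant (rho = 0.80, adjusted p = 0.00404) and 0.02 in parental tumours (rho = -0.05, adjusted p = 0.970). COL1A1 and COL1A2 gave r = 0.82 (rho = 0.82, adjusted p = 0.00312) and 0.57 (rho = 0.52, adjusted p = 0.0470), the latter falling to 0.25 without parental decitabine 3 and parental combination 1, on which it rests. COL4A1 and COL4A2 gave r = 0.59 (rho = 0.51, adjusted p = 0.0470) in resistant tumours, or 0.39 without 2 libraries, and 0.31 (rho = 0.22, adjusted p = 0.359) in parental tumours. COL5A1 and COL11A1 gave r = 0.66 (rho = 0.63, adjusted p = 0.0307) in resistant tumours, or 0.33 without 2 libraries, and 0.14 (rho = 0.24, adjusted p = 0.727) in parental tumours. Whether the lines differ in these relations was not tested.

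Genes that build, read and remove collagen differed between the lines in both directions. Of 13 tested genes of collagen hydroxylation and glycosylation, 1 was higher and 3 were lower in resistant tumours under vehicle (background 20.1%): the prolyl 3-hydroxylases P3H3 (log2 -1.21) and P3H1 (log2 -0.58), the lysyl hydroxylase PLOD1 (log2 -0.68) and the galactosyltransferase COLGALT2 (log2 1.28). Of 19 genes of folding and secretion, 3 were higher and 4 lower, among them the export receptor MIA3 (log2 -0.78, adjusted p = 0.000145), FKBP7 (log2 -1.06), the transcription factor CREB3L2 (log2 0.69) and PPIB (log2 -0.72). Of 13 genes of processing and crosslinking, 2 were higher and 1 lower, namely the transglutaminase TGM2 (log2 1.24, adjusted p = 4.15e-05), the procollagen protease ADAMTS14 (log2 1.26) and the peroxidase PXDN (log2 -0.42).

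Of 12 collagen receptors, 4 were higher and 3 lower in resistant tumours under vehicle. For this list and those that follow, the background was 20.1% (8.66% higher and 11.5% lower). Among the called receptors were the integrin chains ITGA1 (log2 -1.10, adjusted p = 3.92e-05) and ITGB1 (log2 -0.61), CD44 (log2 0.68) and CSPG4 (log2 0.92). Of 15 genes of collagen breakdown, 2 were higher and 4 lower. The gelatinase MMP2 was at 5.83 ± 2.86 CPM in parental and 0.459 ± 0.408 CPM in resistant tumours (SD of 4 libraries each), a log2 difference of -3.56 (SE 0.50, adjusted p = 6.61e-06). The resistant mean lay below the filter's level of 2.17 CPM. Whether MMP2 passed the filter through the parental line alone was not analysed, so its call is not taken as support beyond these levels. MMP16, a membrane-bound activator of MMP2, fell by 2.08 on the log2 scale, while the plasminogen activator PLAT (log2 0.80) and the inhibitor TIMP3 (log2 0.81) were higher. Of 16 genes of TGF-beta signalling to collagen genes, 2 were higher and 4 lower, with THBS1 (log2 0.82) against LTBP1 (log2 -0.86), LTBP3 (log2 -1.54) and SMAD2 (log2 -0.69). Of 14 basement membrane partners of the type IV chains, 2 were higher and 3 lower, with LAMC1 (log2 -0.95), LAMA4 (log2 -0.73) and AGRN (log2 0.96) among them.

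With decitabine, on average over lines and doxorubicin, fewer of these genes were called (background 6.8%). The folding list had 1 of 19, FKBP10, a prolyl isomerase that assists collagen folding in the endoplasmic reticulum (log2 4.02, SE 0.26, adjusted p = 4.77e-11). Its mean level rose from 3.11 to 30.5 CPM in resistant and from 0.727 to 7.97 CPM in parental tumours. Of the hydroxylation list P3H4 rose (log2 0.52) and PLOD2 fell (log2 -0.41), and of the breakdown list MMP9 (log2 1.76), MMP1 (log2 1.02) and MMP16 (log2 0.47) rose. CSPG4 was the 1 receptor called (log2 0.73), THBS1 fell (log2 -0.34), and LAMB1 (log2 0.44), LAMA2 (log2 0.80) and AGRN (log2 -0.67) were called among the basement membrane partners. Of the 13 genes of processing and crosslinking, edgeR called 0 (3 at an unadjusted p under 0.05, 1 by DESeq2).

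The decitabine target DNMT1 was lower in resistant than in parental tumours under vehicle (159 ± 32.8 against 229 ± 38.9 CPM, SD of 4 libraries each, with log2 -0.53, SE 0.15 and adjusted p = 0.0101) and not called with decitabine on average (log2 -0.06, SE 0.08). With doxorubicin, on average (background 2.37%), the crosslinking oxidases LOXL4 (log2 1.07) and LOX (log2 0.75), CSPG4 (log2 0.42), MMP1 (log2 1.34) and TIMP1 (log2 0.35) rose, and MMP16 (log2 -0.48) and THBS1 (log2 -0.24) fell, while no collagen chain gene was called.

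The summed level of all members ranged from a mean of 1862 CPM in the resistant doxorubicin group to 2481 CPM in the resistant vehicle group. Within a line, ranges of the groups overlapped except those of parental combination (1516 to 2125 CPM) and parental vehicle tumours (2294 to 2604 CPM). The sum is weighted towards COL1A1, the highest member, which was not called between these groups. Its means were 450 CPM in parental combination and 849 CPM in parental vehicle tumours.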

How the data were processed

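Counts of 3′ tags were analysed in 29 libraries, prepared per the labels from poly(A) RNA with a QuantSeq FWD kit (Lexogen). The authors deposited raw counts per gene as whole numbers, and the submitters' processing notes name the build GRCh38.p10 with featureCounts, STAR 2.7.3a, DESeq2 and cutadapt. Which annotation release was counted, whether strand was used and how reads of mouse origin were treated are not given in the sources used here. No column lacked a sample (0 columns). Symbols, biotypes and coordinates came from GENCODE 29 (58039 of 58302 identifiers matched). Members and gene lists were chosen with earlier results of these data known.

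A filter on low counts (filterByExpr with 10 as the smallest count and 15 as the smallest total) kept 13495 genes, which hold 99.72% of the counts. All libraries entered 1 robust quasi-likelihood fit in edgeR 4.0.16 (R 4.3.3) with TMM scaling, 8 group means and 16 contrasts, and a gene was called at a Benjamini-Hochberg adjusted p under 0.05. The fit was tested on simulated data. Groups with 1 to 3 counts were given as ratios with exact 95% intervals. Intervals cover counting error only, and library totals of 3398261 to 5382295 counts leave members below about 1 CPM with a handful of counts each. Correlations used 100000 permutations in scipy 1.17.1. Markers of fibroblasts, pericytes, endothelium, adipocytes, muscle and myeloid cells were summed per library.

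Members were named in full where called or among the 10 highest, and from each other list up to 4 called genes were named by adjusted p, of which a part is printed. Alternatives were other scalings, DESeq2 1.42.0, other filters, only the groups compared, a replicate block and leaving libraries out. Replicate numbers did not pair libraries, and replicates of a group always differed by more than sampling noise (chi-square divided by its degrees of freedom was 3.65 or more).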

Additional observations from a re-analysis of the deposited data

Results flagged for a closer look

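Among 100 group and gene combinations of 4 libraries, 9 had 1 library far from the rest of its group, where chance gives about 1 in 20. Resistant vehicle 2 was such a library for 3 genes of fibrillar collagen, with 1482 CPM of COL1A1 (others 512 to 646), 75.2 CPM of COL1A2 (others 25.5 to 32.5) and 521 CPM of COL3A1 (others 111 to 151). Resistant vehicle 3 stood out for COL9A3 with 4.52 CPM and for COL21A1 with 3.17 CPM. Parental combination 1 was low for COL1A1 with 269.6 CPM and high for COL17A1 with 3.72 CPM. Parental decitabine 3 was high for COL1A2 with 118 CPM, and resistant doxorubicin 2 for COL5A1 with 96.1 CPM.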

How the results depend on the processing

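Without the filter on low counts, the edgeR fit called 9 members between the lines under doxorubicin, 4 in the combination and 16 on average, against 4, 2 and 10 with it, and 7 under vehicle and 7 under decitabine against 5 and 6. It ended the calls of COL13A1 under vehicle, under decitabine and in the combination. With decitabine it called 4 in parental and 4 in resistant tumours, 5 on average and 5 for the difference between responses. With doxorubicin it called 1, 2 and 4 (parental, resistant, average), with the combination against vehicle 6 and 4, and with the combination against doxorubicin 2 in each line. With the filter these were 1 and 2 with decitabine in parental and resistant tumours, 3 on average and 0 for the others. The added calls included COL1A1 and COL3A1, whose groups overlapped except for COL1A1 in the parental combination against vehicle, and the cause was not tested. With only the groups compared in the fit, 0 members were called with decitabine and 1 with the combination in parental tumours, and 1 with decitabine in resistant tumours, from fewer samples. DESeq2 called 1 member with the combination in each line and 1 for the difference between responses, and its size factors in edgeR gave 1 with the combination in parental tumours. Without parental vehicle 3 and resistant decitabine 2, chosen as libraries apart, 3 members rather than 6 were called between the lines under decitabine (COL9A3 and COL6A2 as before, and COL4A2 in addition), 9 rather than 10 on average (COL6A1 was lost), and 0 with decitabine in either line, and the cause was not tested.

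With 1 library left out, the members called between the lines were 5 in every fit under vehicle, 1 to 7 under decitabine, 1 to 5 under doxorubicin, 2 to 4 in the combination and 9 to 11 on average. They were 0 to 1 and 0 to 2 with decitabine in parental and resistant tumours, 3 to 4 on average, 0 to 1 for the difference between responses, 0 to 1 for the resistant combination against vehicle and 0 for the others. With the replicate number as a block, 11 members were called between the lines on average (COL5A1 in addition), and it moved no other count of members. Libraries of the same number did not deviate together (mean r 0.0057, from -0.46 to 0.43), and 6 of 29 correlated best with their own number, so no pairing was used. On residuals from treatment means, COL4A1 and COL4A2 gave r = 0.65 in parental (adjusted p = 0.0249) and 0.50 in resistant tumours (adjusted p = 0.0998), COL6A1 and COL6A3 -0.65 in resistant tumours (adjusted p = 0.0249), and COL6A1 and COL6A2 -0.22 there (adjusted p = 0.501), by permutation tests, and the cause was not tested. Depth limited members near 1 CPM.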
